A study of Chlamydomonas reinhardtii with 12 samples.

Results

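The comparison described here is the genotype by light interaction in *Chlamydomonas reinhardtii*, a unicellular green alga: for each gene, the light response of the *phot* mutant minus the light response of the wild type (WT). It used all 12 of the 12 libraries of the series, 3 in each of 4 groups: *phot* in high light (HL), *phot* in low light (LL), WT in HL and WT in LL. LL was 5 and HL 300 µmol photons m-2 s-1, with HL lasting 60 min after LL, and all cultures were in high salt medium, which holds no acetate. WT was strain CC-125. The mutant, labelled PHOT KO, was a single strain depleted of *PHOT1*, and no rescued line was analysed here. The libraries of a group are called A, B and C, which are names only.

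Phototropin, the product of *PHOT1*, is a blue-light photoreceptor. Under excess light the alga lowers the synthesis of its light-harvesting antenna and builds up proteins that dissipate energy as heat, the mechanism known as qE. The same shift draws down CO2 and turns on the carbon concentrating mechanism (CCM), which pumps inorganic carbon towards Rubisco in the pyrenoid. The interaction asks which of these processes respond to light differently when phototropin is missing.

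*PHOT1* had between 115 and 181 counts in the *phot* libraries, against 6074 to 8263 counts in the WT libraries, as the labels call for. Total counts per library ran from 27136674 to 33906264. The spread between replicates was smaller in *phot* (biological coefficient of variation 0.0914 in HL and 0.0725 in LL) than in WT (0.178 in HL and 0.139 in LL). Levels are given as CPM, counts scaled to one common library total with TMM factors (trimmed mean of M-values), and responses and interactions as log2 differences ± SE. A call means an adjusted p below 0.05, by the quasi-likelihood test of edgeR and the Benjamini-Hochberg method, over 14251 tested genes. The p-values measure the spread between these samples, and LL and HL samples may share a starting culture.

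The interaction was called for 7382 of the 14251 tested genes (51.8%), and 3691 of them had a size of at least 1 (25.9% of tested genes). Most of these genes responded less in the mutant. The response was smaller in *phot* than in WT in 5837 of the 7382 genes, or 79.1%, and this share was between 77.3% and 81.7% in the other scalings, filters, tools and left-out libraries tried, and 85.4% in a test against a log2 interaction of 1. The median absolute response over all tested genes was 0.44 in *phot* and 0.75 in WT. By contrast, the balance of signs depended on the scaling: 3342 interactions were positive (23.5% of tested genes) and 4040 negative (28.3%) with TMM, so that 45.3% of called interactions were positive, against 28.8% with library totals, 53.8% with upper-quartile factors and 45.0% to 57.6% when 1 library was left out. Library totals gave a median interaction of all genes of -0.35, against -0.09 with TMM, so no majority sign is stated here. Fits that left out 1 library recomputed the filter and the TMM factors. Their median was 0.05 to 0.08 without any 1 of the *phot* HL libraries, *phot* LL A or C, or WT HL A or B. It was -0.09 to -0.06 without any other library. Whether calls of small interactions that ended in such fits reflect this shift in scaling or the library itself was not tested. Small interactions of genes named below were read against these shifts.

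Each called gene was placed in a class by the 2 light responses. A response was lost in 2651 genes (18.6% of tested genes), where only WT passed the test, and damped in 2664 genes (18.7%), where both passed in the same direction with the smaller size in *phot*. It was reversed in 751 genes (5.27%), gained in 867 genes (6.08%), where only *phot* passed, and amplified in 360 genes (2.53%). When a response also had to reach a log2 size of 1 to count, the numbers were 3098 lost, 842 damped, 83 reversed, 520 gained and 129 amplified. Of those 83 reversed genes, 76 rose in *phot* and fell in WT, and 7 did the opposite. In 63 of the 2651 genes classed as lost, the mean level in *phot* was under 1 CPM in both light conditions, so there was little transcript in which a response could be seen. The scatter of responses shows most coloured points between the diagonal and the horizontal axis.

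**Figure D1:**
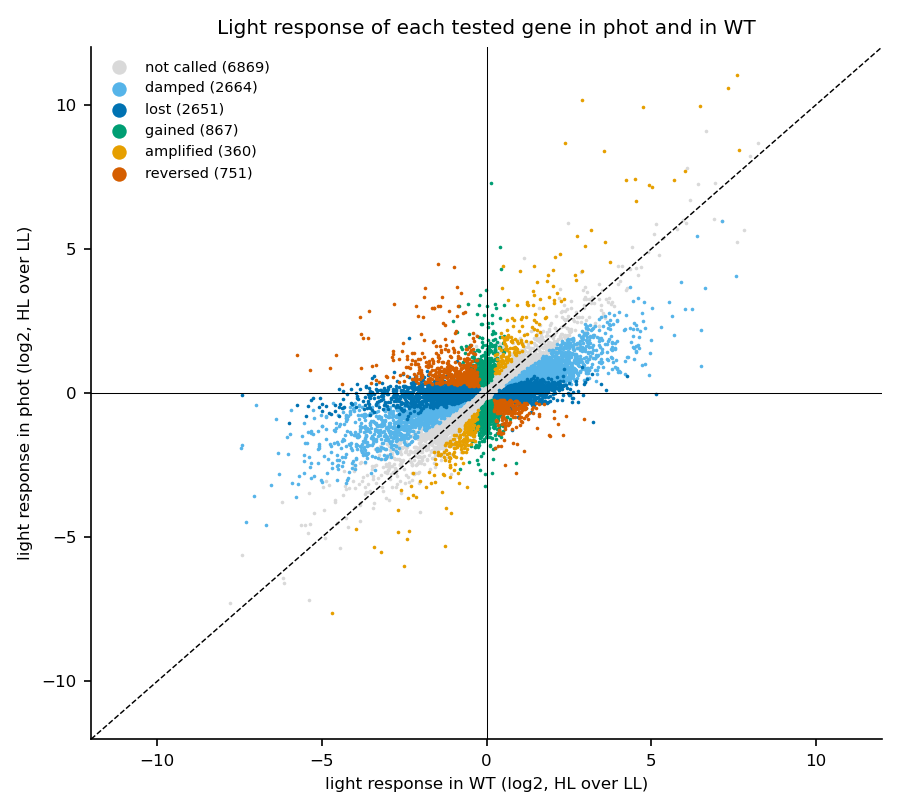
Light response (log2, HL over LL) of each of the 14251 tested genes in *phot* (vertical axis) and WT (horizontal axis), coloured by class with the number of genes in the legend. The dashed line marks equal responses; the 2651 lost genes lie along the horizontal axis and the 751 reversed genes in the upper left and lower right.

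Genes of the LHCII antenna, the trimeric complex that gathers light for photosystem II, had the largest group median of the 18 process groups. All 9 *LHCBM* genes had a positive called interaction, between 1.99 and 4.50 with a median of 3.64, beside a median of -0.09 over all tested genes. The median response of the group was -0.22 in *phot* and -3.04 in WT. Of the 9 genes, 5 are classed as lost (*LHCBM1*, *LHCBM5*, *LHCBM7*, *LHCBM8* and *LHCBM9*), 3 as damped (*LHCBM2*, *LHCBM4* and *LHCBM6*) and 1 as reversed (*LHCBM3*). All 9 were called under each scaling and tool and without any single library.

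*LHCBM4* stood at 114, 135 and 112 CPM in *phot* HL and 260, 282 and 202 CPM in *phot* LL, against 2.06, 1.77 and 1.27 CPM in WT HL and 80.8, 87.1 and 68.5 CPM in WT LL. Its fall in HL was present in both genotypes, but the lowest HL library of *phot* lay above every WT library. The interaction was 4.50 ± 0.24 (adjusted p = 1.08e-08), the largest of the group.

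*LHCBM2* had 2514, 2501 and 2507 CPM in *phot* HL and 3236, 3223 and 3046 CPM in *phot* LL, against 58.7, 57.3 and 45.6 CPM in WT HL and 1392, 1407 and 1286 CPM in WT LL. The *phot* response was -0.34 ± 0.12 and the WT response -4.66 ± 0.14. *LHCBM3* was the member that changed direction, with 2818, 3147 and 3015 CPM in *phot* HL and 2067, 2132 and 1701 CPM in *phot* LL, against 53.1, 66.5 and 53.6 CPM in WT HL and 446, 546 and 431 CPM in WT LL. It rose by 0.61 ± 0.14 in *phot* and fell by 3.04 ± 0.15 in WT, and neither pair of groups overlapped.

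The levels place the difference in both light conditions. In HL the *LHCBM* genes were higher in *phot* than in WT by a median of 5.54 (log2 ratio of group means, range 3.44 to 6.83), and in LL by a median of 1.81 (range 0.69 to 3.65). Several of these genes are near-identical copies whose reads could be split between them. When *LHCBM4*, *LHCBM6*, *LHCBM8* and *LHCBM9* were summed the interaction was 3.84 ± 0.23, and for *LHCBM2* with *LHCBM7* it was 4.25 ± 0.18.

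The gene for NAB1, a cytosolic protein that binds *LHCBM* transcripts and holds back their translation, also kept its level better in the mutant. It is listed by the study among coregulators and was singled out here after its values were seen. *NAB1* (Cre06.g268600) had 397, 407 and 429 CPM in *phot* HL and 580, 703 and 558 CPM in *phot* LL, against 8.81, 13.7 and 11.3 CPM in WT HL and 376, 424 and 513 CPM in WT LL. The LL groups lay within 0.49 of each other (log2 ratio of group means), whereas WT HL stood far below the other groups. The interaction was 4.70 ± 0.23 (adjusted p = 4.88e-09).

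Minor antennae, which link LHCII to the photosystem II core, split by member. *LHCB4* was reversed and *LHCB5* lost, with interactions of 2.62 ± 0.17 and 2.74 ± 0.17. *LHCB4* had 3038, 3144 and 3144 CPM in *phot* HL and 2036, 2210 and 1811 CPM in *phot* LL, against 226, 280 and 265 CPM in WT HL and 949, 1060 and 1081 CPM in WT LL. *LHCB7*, a less abundant relative, moved the other way: 21.0, 21.2 and 21.7 CPM in *phot* HL and 11.3, 10.6 and 10.3 CPM in *phot* LL, against 32.7, 25.2 and 26.0 CPM in WT HL and 5.35, 5.77 and 5.11 CPM in WT LL. Its rise in HL was damped in the mutant, and the interaction was -1.38 ± 0.16 (adjusted p = 8.16e-06).

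**Figure D2:**
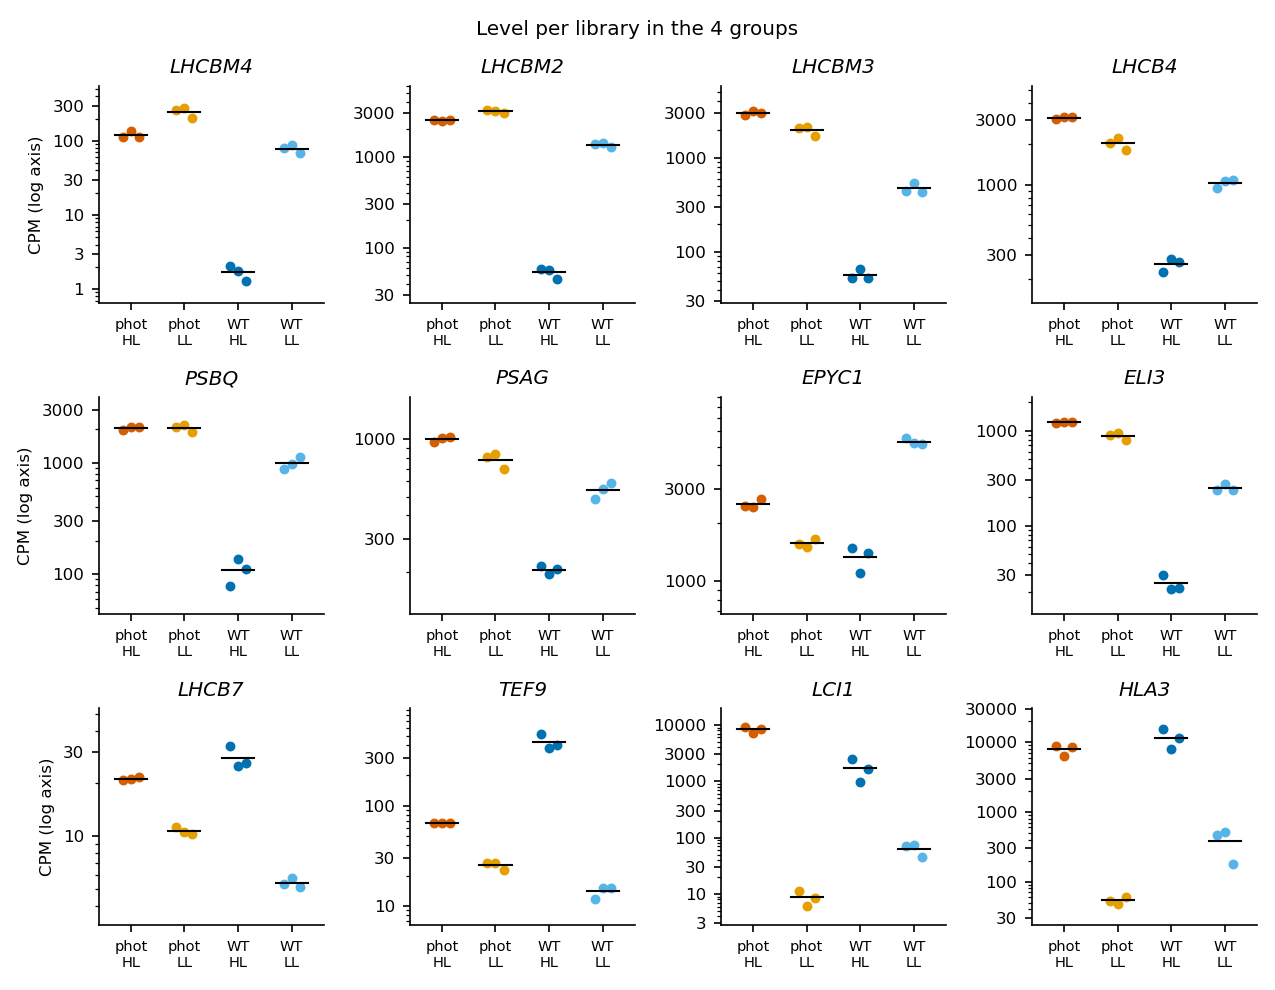
Level of 12 genes in each library (CPM, log axis) in *phot* HL, *phot* LL, WT HL and WT LL. Points are the 3 libraries of a group and bars their mean; for *LHCBM4* to *PSAG* and for *ELI3* the WT HL libraries lie below all others, while *LHCB7* and *TEF9* are highest in WT HL, and *LCI1* is highest in *phot* HL.

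Photosystem and electron carrier genes of the CCM list were included by the study because their proteins had been used as baits. They were called in 7 of 8 cases (87.5%, beside 51.8% of all genes), 5 positive and 2 negative, with a median interaction of 1.57. Small subunits of photosystem I and the oxygen-evolving complex lost or reversed a fall. *PSBQ*, a subunit of the oxygen-evolving complex, had 1990, 2109 and 2085 CPM in *phot* HL and 2096, 2205 and 1899 CPM in *phot* LL, against 78.1, 138 and 113 CPM in WT HL and 882, 983 and 1128 CPM in WT LL. The *phot* groups overlapped, the WT groups did not, and the interaction was 3.18 ± 0.25 (adjusted p = 2.61e-07). Among photosystem I subunits, *PSAK* (2.25 ± 0.23) and *PSAH* (1.39 ± 0.15), which is needed to dock LHCII at photosystem I, were lost.

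*PSAG*, another photosystem I subunit, was reversed. It had 970, 1011 and 1023 CPM in *phot* HL and 805, 833 and 700 CPM in *phot* LL, against 215, 197 and 208 CPM in WT HL and 485, 545 and 587 CPM in WT LL. It thus rose by 0.36 ± 0.11 in *phot* and fell by 1.39 ± 0.11 in WT. *PSBP3* and *PSBP4*, which encode proteins of the PsbP family, were the 2 negative members, with damped rises and interactions of -1.51 ± 0.19 and -1.40 ± 0.19.

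*CYC6*, encoding cytochrome c6, a soluble electron carrier, had 2737, 3344 and 3582 counts in *phot* HL and 2, 0 and 2 counts in *phot* LL, against 1091, 946 and 1181 counts in WT HL and 4, 6 and 3 counts in WT LL. The *phot* LL libraries were at or under the floor of 3 counts, so the fitted size of its interaction depends on the model and is not given. *FDX1*, the main ferredoxin, was not called (0.43 ± 0.21, adjusted p = 0.099), although it passed in 4 of 12 fits that left out 1 library.

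The accessory list of quenching and state transitions held 5 members, all called, beside 51.8% of all genes. *PSBR*, a photosystem II subunit, was reversed: it had 3832, 4218 and 4785 CPM in *phot* HL and 2612, 3283 and 2572 CPM in *phot* LL, against 1606, 1925 and 1940 CPM in WT HL and 4760, 4569 and 6176 CPM in WT LL. Here the genotypes crossed, with *phot* higher in HL and lower in LL, and the interaction was 2.10 ± 0.22 (adjusted p = 3.94e-06). *VDR1*, a relative of violaxanthin de-epoxidase, had a damped fall (1.12 ± 0.29), and *CAS*, a chloroplast calcium sensor, an amplified rise (0.51 ± 0.18), but neither passed with library totals (0.85 and 0.25), nor did *CAS* without WT HL library C. *STT7*, the kinase of state transitions, and *ZEP1*, zeaxanthin epoxidase, had damped rises (-0.59 ± 0.16 and -0.63 ± 0.22), which were -0.33 and -0.25 without WT HL library A and no longer passed. With 1 library left out, *STT7* was called in 7 and *ZEP1* in 4 of 12 fits.

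Early light-inducible proteins, relatives of the antenna proteins that accumulate under light stress, were called in 4 of 5 cases (80%, beside 51.8% of all genes). Of these, 3 members rose in HL in both genotypes, less so in *phot*: *ELI1* with an interaction of -1.66 ± 0.23, *ELI2* with -0.88 ± 0.21 and *ELI5* with -2.86 ± 0.90. The size for *ELI5* depends on WT HL library A, which had 39.4 CPM beside 4.38 and 11.9 CPM in the other WT HL libraries. Leaving it out gave an interaction of -1.51, which still passed. The call ended without WT LL library A or C and with limma-voom (adjusted p = 0.117, or 0.0776 with group weights).

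*ELI3* was the reversed member of the family. It had 1199, 1230 and 1233 CPM in *phot* HL and 895, 952 and 802 CPM in *phot* LL, against 30.5, 21.6 and 22.3 CPM in WT HL and 238, 276 and 239 CPM in WT LL. It rose by 0.47 ± 0.13 in *phot* and fell by 3.34 ± 0.15 in WT (interaction 3.81 ± 0.20, adjusted p = 7.4e-09).

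Of the qE effectors themselves, the *LHCSR* genes, by comparison, kept a large rise in both genotypes. *LHCSR3.1* and *LHCSR3.2*, encoding the stress-related antenna protein that carries out qE, were damped, with interactions of -1.17 ± 0.29 and -0.96 ± 0.28. The response of *LHCSR3.1* was 5.98 in *phot* and 7.15 in WT, and that of *LHCSR3.2* 5.43 in *phot* and 6.39 in WT. Without WT HL library A the values were -0.76 and -0.54, and *LHCSR3.2* no longer passed, nor did it without *phot* HL library B or *phot* LL library C. *LHCSR1* was not called (0.22 ± 0.67), but without WT HL library A it was at 1.20 and passed, a positive interaction. Its level was lower in *phot* in both lights, with log2 ratios of group means, *phot* over WT, of -1.91 in HL and -2.12 in LL. WT HL library A had 1217 CPM of *LHCSR1*, beside 294 and 442 CPM in B and C. Such ratios were -2.20 in HL and -1.03 in LL for *LHCSR3.1*, and -1.33 and -0.38 for *LHCSR3.2*. *PSBS1* and *PSBS2* encode another photosystem II protein of light stress. *PSBS1* missed the filter with 14, 12 and 18 counts in *phot* HL, against 1195, 286 and 360 counts in WT HL. *PSBS2* had 62, 31 and 40 counts in *phot* HL, against 1236, 383 and 509 counts in WT HL. It was tested and not called (adjusted p = 0.537), nor was the sum of both (adjusted p = 0.150). *PSBS2* was at or under the floor in *phot* LL, so the fitted sizes are not given.

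**Figure D3:**
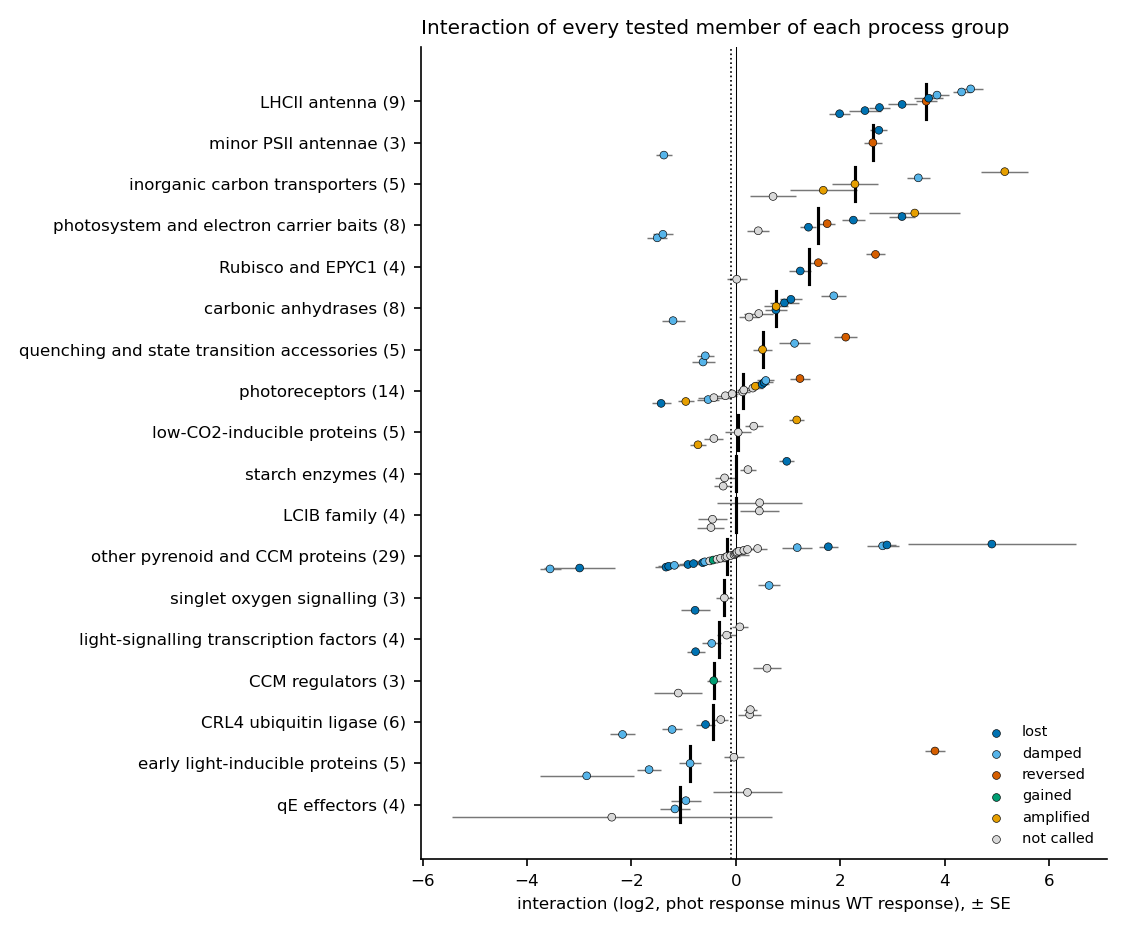
Interaction (log2, *phot* response minus WT response) of every tested member of the 18 process groups, with the number tested in brackets. Points are genes coloured by class, grey lines SE, black bars the median of the group and the dotted line the median of all tested genes, -0.09; the 9 LHCII genes lie between 1.99 and 4.50 and the qE effectors at or below 0.22.

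In the CCM, transporters of inorganic carbon formed the group with the most amplified members. Of 5 tested genes, 4 were called (80%, beside 51.8% of all genes), all positive. The 3 amplified ones were *LCI1*, a plasma membrane channel, *HLA3*, a bicarbonate transporter, and *CCP2*, a carrier protein. *LCI1* had 9242, 7310 and 8571 CPM in *phot* HL and 11.5, 6.10 and 8.55 CPM in *phot* LL, against 2531, 957 and 1631 CPM in WT HL and 71.0, 72.8 and 45.5 CPM in WT LL. The mutant was thus above WT in HL and below it in LL, and the interaction was 5.15 ± 0.45 (adjusted p = 7.39e-07).

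*HLA3* had 8826, 6344 and 8505 CPM in *phot* HL and 53.0, 47.7 and 60.4 CPM in *phot* LL, against 15419, 7930 and 11452 CPM in WT HL and 463, 507 and 180 CPM in WT LL. The HL libraries of the genotypes overlapped, and the LL libraries did not, with a log2 ratio of group means, *phot* over WT, of -2.84. *CCP2* was lower in the mutant in LL too, with such a ratio of -1.07 in HL and -2.74 in LL, whose call (1.67 ± 0.64, adjusted p = 0.0409) was lost with library totals and in 7 of 12 fits that left out 1 library: *phot* HL A or C, *phot* LL A or B, WT HL C, WT LL A or B. *LCIA*, the bicarbonate channel of the chloroplast envelope, was not called (0.71 ± 0.45), but passed at 1.35 without WT HL library A.

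*RHP1*, a Rhesus protein that serves as a CO2 channel, went down in HL instead. It had 7.97, 8.94 and 6.65 CPM in *phot* HL and 54.4, 57.5 and 55.1 CPM in *phot* LL, against 0.577, 0.335 and 0.389 CPM in WT HL and 33.7, 33.9 and 34.4 CPM in WT LL. Its fall was damped, with an interaction of 3.49 ± 0.22. In the RefSeq annotation *RHP1*, *RHP2*, *LHCBM9* and *LHCBM8* follow each other with 0 genes between them, and *LHCBM4* lies 3 genes away. *RHP2* did not pass the filter.

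Carbonic anhydrases, which interconvert CO2 and bicarbonate, were called in 6 of 8 cases (75.0%, beside 51.8% of all genes), 5 positive and 1 negative, and in 4 with library totals, 3 positive and 1 negative. *CAH2*, a periplasmic isoform, had 1.80, 2.49 and 2.78 CPM in *phot* HL and 6.13, 6.33 and 6.04 CPM in *phot* LL, against 2.18, 3.44 and 3.18 CPM in WT HL and 25.5, 29.9 and 29.8 CPM in WT LL, a damped fall with an interaction of 1.87 ± 0.24. *CAH3*, the isoform of the thylakoid lumen, had a damped rise (-1.20 ± 0.22), with 331, 270 and 345 CPM in *phot* HL and 162, 194 and 182 CPM in *phot* LL, against 1253, 821 and 969 CPM in WT HL and 224, 247 and 279 CPM in WT LL. The falls of *CAH9* (1.05 ± 0.21), *CAH7* (0.93 ± 0.27) and *CAH6* (0.77 ± 0.21) were lost, whereas *CAH4*, a mitochondrial isoform, was amplified (0.77 ± 0.23). *CAH7* and *CAH4* did not pass with library totals (0.66 and 0.54). The neighbouring copy *CAH5* was not called (0.44 ± 0.28; it passed in 1 of 12 fits that left out 1 library), and the sum of *CAH4* and *CAH5* gave 0.68 ± 0.25 (adjusted p = 0.0333).

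The *LCIB* family, soluble proteins around the pyrenoid that recapture CO2, had 0 called members of 4, beside 51.8% of all genes. It had 2 negative calls with library totals and at most 1 call when 1 library was left out. Its median response was 2.67 in *phot* and 2.68 in WT, and its interactions ran from -0.48 to 0.45, with an SE as large as 0.82 for *LCIE*. *LCID* (0.45 ± 0.37) is the neighbour of *CCP2* in the annotation, with 0 genes between them.

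Of the genes for Rubisco, its activase and its pyrenoid linker, 3 of 4 were called (75%, beside 51.8% of all genes), all positive. *EPYC1*, which packs Rubisco into the pyrenoid, had 2467, 2422 and 2685 CPM in *phot* HL and 1564, 1506 and 1651 CPM in *phot* LL, against 1491, 1101 and 1409 CPM in WT HL and 5560, 5215 and 5135 CPM in WT LL. Light raised it in *phot* by 0.68 ± 0.13, while it fell by 1.99 ± 0.13 in WT (interaction 2.67 ± 0.19, adjusted p = 9.7e-08). *RCA1*, Rubisco activase, lost a fall of similar kind (1.23 ± 0.21), with a log2 ratio of group means, *phot* over WT, of -1.36 in LL.

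Counted apart, the 2 genes of the Rubisco small subunit differed. *RBCS1* had 971, 965 and 933 CPM in *phot* HL and 729, 755 and 713 CPM in *phot* LL, against 397, 308 and 346 CPM in WT HL and 748, 731 and 926 CPM in WT LL, and was reversed (1.58 ± 0.17). *RBCS2* was at 0.01 ± 0.19 and not called. These neighbouring genes are near-identical, and their sum gave 0.13 ± 0.19 (adjusted p = 0.579). The sum fell in both genotypes, with a response of -0.57 ± 0.13 in *phot* and -0.71 ± 0.13 in WT. How reads were split between the copies was not tested.

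The other pyrenoid and CCM proteins comprised 29 tested genes, of which 15 were called (51.7%, beside 51.8% of all genes), 5 positive and 10 negative. *TEF9* had the strongest negative interaction of the list, with 66.7, 66.7 and 67.6 CPM in *phot* HL and 26.8, 26.8 and 22.6 CPM in *phot* LL, against 520, 374 and 403 CPM in WT HL and 11.6, 14.9 and 15.2 CPM in WT LL. Its rise was 1.40 ± 0.14 in *phot* and 4.96 ± 0.16 in WT (interaction -3.56 ± 0.20, adjusted p = 1.43e-08). *ULP1* lost its fall, with 824, 831 and 833 CPM in *phot* HL and 809, 855 and 725 CPM in *phot* LL, against 59.1, 76.7 and 65.2 CPM in WT HL and 419, 481 and 533 CPM in WT LL.

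Some members with large values carry limits. Cre10.g452250 (4.90 ± 1.61) had at most 0.359 CPM in any *phot* library, against 2.39, 14.8 and 7.47 CPM in WT HL and 416, 232 and 186 CPM in WT LL, so the mutant held little transcript in which a fall could be seen, and it did not pass without *phot* HL library B. Cre16.g662600 (-2.99 ± 0.68) had 770, 117 and 325 CPM in WT HL, and was at -1.96 without WT HL library A. Of the low-CO2-inducible proteins, *LCI34* had an amplified rise (1.16 ± 0.14) and *LCI30* an amplified fall (-0.73 ± 0.16). Among 4 starch enzymes only the branching enzyme gene *SBE4* was called (0.97 ± 0.14), a share of 25% beside 51.8% of all genes.

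**Figure D4:**
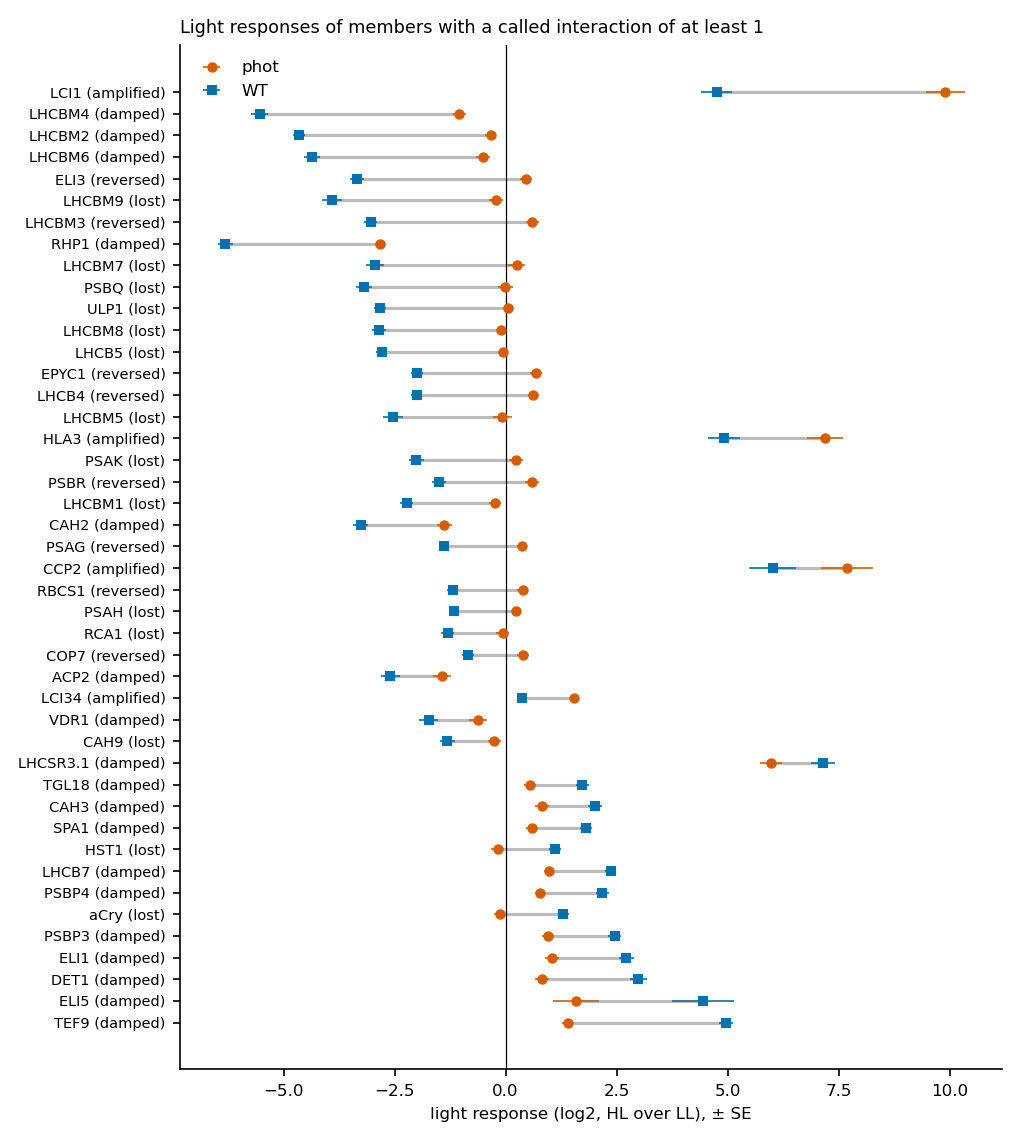
Light response (log2, HL over LL, ± SE) in *phot* (circles) and WT (squares) of the 44 members with a symbol and a called interaction of at least 1 in size, leaving out those with a group at the floor of counts. They are sorted by interaction, 31 positive and 13 negative, and the class is given in brackets. The lowest WT response, -6.31 for *RHP1*, stands beside -2.82 in *phot*.

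Light perception and signalling came next in the lists. Of 14 photoreceptor genes, 8 were called (57.1%, beside 51.8% of all genes), 5 positive and 3 negative, with a median of 0.14. With library totals 4 were called, 1 positive and 3 negative, and the median was -0.10. *aCry*, an animal-like cryptochrome, lost its rise: it had 10.3, 11.6 and 11.2 CPM in *phot* HL and 12, 11.8 and 12.3 CPM in *phot* LL, against 19.7, 14.2 and 17.3 CPM in WT HL and 7.36, 7.41 and 5.85 CPM in WT LL (interaction -1.43 ± 0.18, adjusted p = 1.86e-05). *COP7*, an opsin-related gene, was reversed (1.23 ± 0.19), with 45.8, 44.5 and 45.0 CPM in *phot* HL and 36.8, 35.5 and 31.2 CPM in *phot* LL, against 22.7, 31.8 and 29.0 CPM in WT HL and 57.0, 50.5 and 42.3 CPM in WT LL. *CHR2*, a channelrhodopsin, fell more in *phot* (-0.96 ± 0.16). *PHOT1* itself was called (0.50 ± 0.14) on the residual counts of the mutant, but not with library totals.

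CUL4-based ubiquitin ligases, in which COP1 and SPA1 select substrates and hold back photoprotection genes, had 3 called members of 6 (50%, beside 51.8% of all genes), all negative. *DET1*, a component of such a complex, had 15.3, 13.2 and 15.2 CPM in *phot* HL and 7.85, 9 and 7.95 CPM in *phot* LL, against 20.6, 13.8 and 13.8 CPM in WT HL and 2.23, 2.18 and 1.58 CPM in WT LL. The HL libraries of both genotypes overlapped and the LL libraries did not, and the interaction was -2.17 ± 0.24 (adjusted p = 6.22e-06). *SPA1* had a damped rise of the same kind (-1.22 ± 0.19), and *UBC17*, an E2 enzyme gene, was at -0.58 ± 0.18. *UBC17* was called in 5 of 12 fits that left out 1 library (-0.32 without WT HL library A). It was not called in those fits whose median interaction of all genes was positive. *COP1* (0.26 ± 0.22), *CUL4* (-0.29 ± 0.14) and *DDB1* (0.28 ± 0.13) were not called, though *DDB1* was in 7 of 12 fits that left out 1 library. With DESeq2, no filter, median-of-ratios or upper-quartile factors, 4 of the 6 were called, 3 negative and 1, *DDB1*, positive. Library totals gave 4 negative calls.

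Known transcriptional regulators of photoprotection and the CCM had mostly small interactions. Of 4 light-signalling factors 2 were called (50%) and of 3 CCM regulators 1 (33.3%), all negative, beside 51.8% of all genes. With library totals 2 CCM regulators were called, both negative, and with upper-quartile factors 0. Median-of-ratios factors and no filter each gave 1 positive and 0 negative CCM calls, and DESeq2 gave 1 of each sign. The positive CCM regulator was Cre02.g103800 (0.60, adjusted p = 0.0835). It passed in 4 of 7 other scalings, filters and tools, and in 4 of 12 fits that left out 1 library. *NF-YC* lost a rise (-0.77 ± 0.17) and *CRCO*, a CONSTANS-like factor, was at -0.46 ± 0.18 with an adjusted p of 0.0484, which held in 1 of 12 fits that left out 1 library. *LCR1*, which acts in low-CO2 gene expression, was not called (-1.10 ± 0.46, adjusted p = 0.057). Leaving out WT HL library A gave -0.50. The call was made when WT HL library B was left out (-1.28), under library totals (-1.31) and under limma-voom with group weights (-1.05). *CIA5*, the master regulator of the CCM, was called as gained (-0.42 ± 0.14) but held in 5 of 12 such fits and was at -0.21 without WT HL library A. Of 3 genes of singlet oxygen signalling 1 was positive and 1 negative (66.7% called, beside 51.8% of all genes). *SOR1* (-0.78 ± 0.28) held in 3 of 12 fits, and *SAK1* was not called. With upper-quartile factors *CIA5* (-0.30), *CRCO* (-0.34), *SOR1* (-0.66) and *ZEP1* (-0.51) did not pass.

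The 10 regulators that the study ranked in its PHOT-specific network were chosen on these same libraries, so their count is not independent evidence. Of the 10, 7 were called (70%, beside 51.8% of all genes), 2 positive and 5 negative. With median-of-ratios factors 5 were called, 2 positive and 3 negative. *LCI8*, of the GNAT family, had 64.4, 51.8 and 62.8 CPM in *phot* HL and 16.2, 16.5 and 14.4 CPM in *phot* LL, against 129, 88.1 and 101 CPM in WT HL and 9.54, 9.55 and 11.0 CPM in WT LL, a damped rise (-1.48 ± 0.20). The paper saw no effect of overexpressing *LCI8* on qE transcripts after HL. It holds that the protein likely acts in arginine synthesis and was wrongly listed among transcription factors. *QER5* had an amplified fall (-1.09 ± 0.18), with the genotypes apart in LL (12.1, 12.8 and 13.2 CPM in *phot* LL, against 6.64, 6.99 and 8.96 CPM in WT LL). *QER1*, of the VARL family, had 34, 54 and 28 counts in *phot* HL and 193, 138 and 128 counts in *phot* LL, against 1, 1 and 2 counts in WT HL and 115, 111 and 54 counts in WT LL. Since WT HL was at the floor, its fitted size is not given. *QER7*, of the SBP family, was not called (-0.56 ± 0.24, adjusted p = 0.062) except with library totals (-0.81), nor were *ROC75* (-0.18 ± 0.18) and Cre16.g676421 (-0.24 ± 0.37).

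Among all transcription factors the pattern was close to that of the genome. Of 383 tested factors 203 were called (53.0%, beside 51.8% of all genes), 84 positive and 119 negative, with a median of -0.13. This split depended on the scaling: library totals gave 55 positive and 144 negative calls, median-of-ratios factors 95 of each, and upper-quartile factors 93 positive and 90 negative. By class, 78 were lost, 53 damped, 25 reversed, 28 gained and 14 amplified. The family with the most one-sided positive count was VARL, a family of DNA-binding proteins related to the regA gene of *Volvox*: 5 of 10 members were called (50%, beside 51.8% of all genes), all positive and all of at least 1 in size, and the counts were equal with each other scaling apart from library totals, where 1 negative call was added. VARL genes were higher in *phot* HL than in WT HL by a median of 1.65, and by a median of 0.07 in LL.

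Further VARL members show the course. Cre10.g418600 was reversed (3.26 ± 0.35), with 41.5, 44.5 and 31.2 CPM in *phot* HL and 28.8, 23.4 and 23.2 CPM in *phot* LL, against 2.31, 6.42 and 3.47 CPM in WT HL and 29.0, 23.4 and 24.2 CPM in WT LL. Cre06.g304250 was lost (3.04 ± 0.25), with 16.1, 22.1 and 16.6 CPM in *phot* HL and 22.0, 18.7 and 18.2 CPM in *phot* LL, against 2.35, 3.71 and 2.76 CPM in WT HL and 28.9, 28.7 and 21.1 CPM in WT LL. In both genes every WT HL library lay below all others. In Cre10.g418600 the *phot* HL libraries also lay above those of the other groups.

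TRAF factors leaned the other way, with 13 negative and 2 positive calls among 27 tested members and a median of -0.43. Their called share was 55.6%, beside 51.8% of all genes (28.3% negative and 23.5% positive). The negative calls numbered 12 to 14 under the other scalings and tools, and 9 to 13 when 1 library was left out. GNAT factors had 11 negative and 4 positive calls of 26 (57.7% called). Of the 15 called members 11 were lost, beside 35.9% of all called genes. The lean of GNAT factors to negative calls was weaker with median-of-ratios or upper-quartile factors, 9 negative and 6 positive. The SNF2 family had the largest called share, 11 of 13 (84.6%), split as 5 positive and 6 negative. It had 6 to 10 calls when 1 library was left out.

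Single factors at the extremes of the classes had modest levels. The largest reversed interaction among factors was that of Cre08.g361400, of the CPP family (4.57 ± 0.33), with 11.8, 15.8 and 14.1 CPM in *phot* HL and 0.875, 1.28 and 1.17 CPM in *phot* LL, against 1.44, 2.31 and 1.31 CPM in WT HL and 3.21, 3.90 and 2.43 CPM in WT LL. Only *phot* HL stood apart upwards. Cre12.g522400, a MYB-family factor, was reversed as well (3.99 ± 0.37). Gained responses were led by Cre06.g305850 of the ARID family (-2.92 ± 0.26), a fall present in *phot* alone, and Cre01.g004600 of the RWP-RK family (1.88 ± 0.22), with 54.6, 60.5 and 54.9 CPM in *phot* HL and 15.5, 12.7 and 12.6 CPM in *phot* LL, against 16.6, 14.1 and 16.1 CPM in WT HL and 16.3, 15.3 and 9.65 CPM in WT LL.

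**Figure D5:**
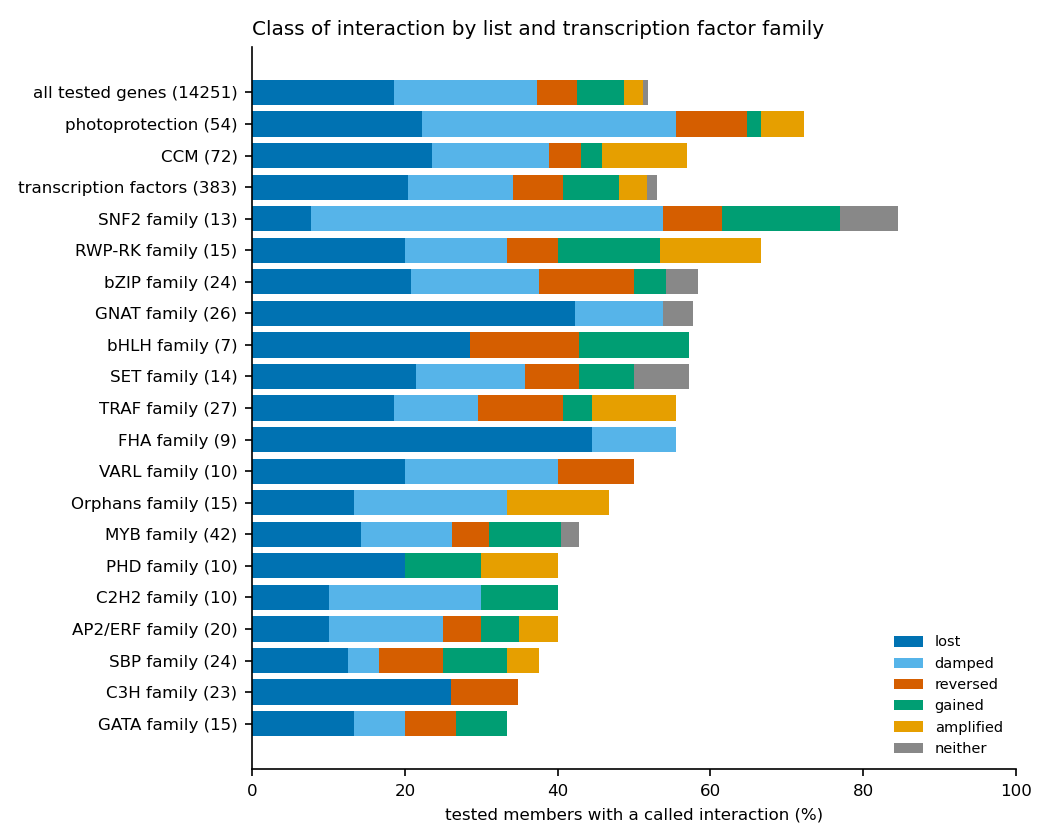
Share of tested members with a called interaction (%), split by class, for all tested genes, the study's photoprotection, CCM and transcription factor lists and each family with at least 10 listed members, with the number tested in brackets. Called shares run from 33.3% in GATA to 84.6% in SNF2, beside 51.8% of all tested genes.

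Across the whole lists, photoprotection had 39 called members of 54 (72.2%), 21 positive and 18 negative, and the CCM list 41 of 72 (56.9%), 25 positive and 16 negative, beside 51.8% of all tested genes. With library totals the splits turned, to 14 positive and 20 negative in photoprotection and 21 positive and 24 negative in the CCM list. Lost and damped members made up 30 of the 39 and 28 of the 41. Over all called genes 35.9% were lost and 36.1% damped. Reversed members numbered 5 in photoprotection and 3 in the CCM list, beside 10.2% of all called genes, and all 8 interactions were positive. Their rises in *phot* were between 0.36 and 0.68, so with a fold minimum of 1 on the log2 scale none stayed reversed: 7 became lost, and *COP7* fell under the minimum in both genotypes. Amplified responses numbered 8 in the CCM list and 3 in the photoprotection list, beside 4.88% of all called genes.

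Over all genes with a mean of at least 3 log2 CPM, the class extremes included loci to which the sources used here give no name. The largest gained interaction was that of Cre08.g368800 (7.15 ± 0.23), with 31.2, 25.3 and 28.4 CPM in *phot* HL and 0.159, 0.168 and 0.209 CPM in *phot* LL, against 6.51, 7 and 6.65 CPM in WT HL and 6.96, 5.73 and 5.91 CPM in WT LL. Its level in WT did not move with light, and *phot* LL stood far below the other groups. The largest reversed one was Cre08.g370900 (7.07 ± 0.43), with 6.56, 9.09 and 6.81 CPM in *phot* HL and 4, 2.93 and 1.97 CPM in *phot* LL, against 0.782, 0.457 and 1.03 CPM in WT HL and 54.0, 35.1 and 30.4 CPM in WT LL. In the negative direction, Cre08.g363874 led the reversed genes (-3.41 ± 0.18) and Cre01.g030750 the gained ones (-2.78 ± 0.33).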

How the data were processed

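RNA of 12 samples was sequenced by the authors as stranded mRNA libraries, aligned with STAR 2.5.3a to Phytozome assembly version 5 and counted with HTSeq-count in reverse-stranded mode (version not given in the sources used here). The deposited values are raw counts per gene, 1 column per library, for 17741 genes, of which 719 had none. Columns name the group only, and 0 sample columns were left out. Replicate pairs differed beyond sampling noise, so each library was counted once.

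Genes above 1 CPM in at least 4 libraries were kept, as in the study's methods. The interaction was tested with edgeR 4.0.16 (limma 3.58.1, R 4.3.3), 1 coefficient per group, TMM factors (0.66 to 0.86 in WT LL, 1.09 to 1.23 in *phot*) and Benjamini-Hochberg adjustment. SEs were derived from the F statistic. The fit was tested on simulated data. A count of 3, or 0.0885 to 0.111 CPM, was the floor; it covers counting error only.

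Process groups were drawn from the study's photoprotection (55 genes), CCM (73) and transcription factor (407) lists. These members and lists were chosen with earlier results of these data known. Named genes were, by rule, up to 4 called members per group with the largest interaction and a mean of at least 1 log2 CPM, the qE effectors, *HLA3*, *LCI1*, *LCIA*, *CAH4*, *LCR1*, the 10 network regulators, the 3 factors with the largest interaction per class (gained, lost, reversed; mean of at least 1), and the 3 largest per class and sign over all genes (mean of at least 3 and no overlap between light conditions); of the unnamed loci, at most 2 per sign are printed. Other members are named with values where the text describes a whole group.

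RefSeq annotation (Chlamydomonas_reinhardtii_v5.5) matched 17738 gene identifiers and was used for gene order only; it gave 0 symbols or product names, so planned keyword lists and sequences were not used here. Symbols follow the study. Alternatives were median-of-ratios, upper-quartile and library-total factors, no filter, DESeq2 1.42.0, limma-voom with and without group weights, each library left out, a test against a log2 size of 1, a fold minimum for classes, and summed gene copies.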

Additional observations from a re-analysis of the deposited data

Results flagged for a closer look

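By design, the light response differed between genotypes by the interaction test in 7382 genes. Named genes whose responses passed in opposite directions in *phot* and WT were *ELI3* (3.81), *LHCBM3* (3.64), *EPYC1* (2.67), *LHCB4* (2.62), *PSBR* (2.10), *PSAG* (1.75), *RBCS1* (1.58) and *COP7* (1.23). The same was seen for the factors Cre08.g361400 (4.57), Cre12.g522400 (3.99) and Cre10.g418600 (3.26). Of loci without a name, Cre08.g370900 had an interaction of 7.07 and Cre08.g363874 of -3.41. In all of them but Cre08.g363874 the interaction was positive, a rise in *phot* beside a fall in WT. For *RBCS1* this held for its own counts only, as its sum with *RBCS2* fell in both genotypes. No group held 4 or more libraries, so single libraries were not tested for distance from their group.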

How the results depend on the processing

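With library totals 28.8% of called interactions were positive, without a filter 55.4%, against a log2 size of 1 64.0%, and with 1 library left out 45.0% to 57.6%. A test against a log2 interaction of 1 called 1744 genes, of which 541 were lost, 683 damped, 387 reversed, 79 gained and 54 amplified, with 17 photoprotection members, 17 CCM members and 42 transcription factors. Requiring a response of at least 1 left 842 damped, 83 reversed, 520 gained and 129 amplified genes. With 1 library left out, 6424 to 7705 interactions were called, and the counts of each class and of called photoprotection, CCM and transcription factor members stayed within 1.5 times the full value. The negative calls alone moved more, with 10 to 16 in photoprotection, 10 to 17 in the CCM list and 69 to 111 among factors, as did the smaller coregulator list (5 to 11 calls). For the genes named by rule, 1704 of the values recomputed kept their direction and side of the threshold, 113 no longer passed, 6 newly passed and 5 changed sign. These 5 sign changes were all of genes that were not called: *ROC75* ran from -0.33 to 0.0305 and Cre16.g676421 from -0.38 to 0.43 with 1 library left out. Other list members that were not called changed sign in more settings, such as *HPR1* in 14, *ELI4* in 13 and *UVR8* in 12. Of 119 members and named genes with a call, 28 lost it in at least 1 setting other than the test against 1. With 1 library left out, *UBC17* and *CIA5* lost their call in each fit with a positive median interaction of all genes, and in no other. The cause was not tested.

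No paired analysis was possible because the count columns give the group of each library and no replicate number. Precision was limited by 3 libraries a group and by the wider spread of WT HL, where library A moved several induced genes, and by counts at the floor for *CYC6*, *QER1* and the *PSBS* genes. With 1 mutant strain, the loss of phototropin and other differences between the strains cannot be told apart.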

Other observations

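The study's lists of 10 consensus network regulators and 14 coregulators, also chosen on these libraries, had 7 called members of 10 tested (4 positive and 3 negative, median interaction -0.32) and 8 of 13 tested (4 positive and 4 negative, median -0.54), beside 51.8% of all tested genes. Among larger factor families, bZIP had 8 positive and 6 negative calls of 24 tested (58.3% called). MYB had 10 and 8 of 42 (42.9%) and SBP 2 and 7 of 24 (37.5%), beside 51.8% of all tested genes. With upper-quartile factors the positive and negative calls were 8 and 3 in bZIP, 13 and 7 in MYB, and 2 and 4 in SBP.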
